A study of Mus musculus with 5 samples.

Results

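H2-Oa, H2-Ob, H2-DMa, H2-DMb1 and H2-DMb2 encode the mouse homologues of the chains of HLA-DO and HLA-DM. They were taken by gene symbol, 5 of the 27678 genes in the deposited table, and all 5 passed the filter on low values. RNA-seq covered 3 samples of Etv3-/- and 2 of Etv3+/+ dendritic cells, grown from bone marrow and then sorted. The comparison asks which transcripts differ when Etv3, the gene of an ETS family transcription factor, is deficient. All were cultured for 6 days with IL-4 (5 ng/ml) and GM-CSF (20 ng/ml), cytokines under which marrow progenitors give rise to dendritic cells. Live single cells that were CD11c+, CD11b intermediate, high in MHC class II and CD115- were sorted to a purity above 95%. The labels do not give the strain, age or sex of the mice, the part of Etv3 that was disrupted, or whether replicates came from separate mice or cultures. Errors and p-values therefore measure the spread between these libraries, which may be technical. These genes were chosen with their difference between genotypes already known, so their values are given as a description, without a test.

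MHC class II molecules reach the endosomes with their peptide groove filled by a fragment of the invariant chain. DM, a heterodimer of an alpha chain (H2-DMa) and a beta chain (H2-DMb1 or H2-DMb2), catalyses the release of that fragment and favours peptides that bind stably. DO, a heterodimer of H2-Oa (alpha) and H2-Ob (beta), binds DM and inhibits it, so the balance of DO to DM sets how far the class II repertoire is edited. DM is made wherever class II is made, whereas DO is best known from B cells, thymic epithelium and some dendritic cells.

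Each library held 42983550 to 68253936 reads assigned to genes. Etv3 itself averaged 20655 ± 2093 normalized counts in Etv3-/- libraries and 24249 ± 1695 in Etv3+/+ libraries (SD, n = 3 and 2; limma adjusted p = 0.567). A total over the whole gene does not check the knockout where the disrupted part is not given, and genotypes are as labelled. Transcripts of the sorting markers were read as a check of the labelled cell type. H2-Aa, the alpha chain of the classical molecule I-A, was at 466661 to 609975 normalized counts in Etv3-/- and 203489 to 247150 in Etv3+/+ libraries. Itgax, which encodes CD11c, averaged 13547 ± 2821 normalized counts in Etv3-/- and 10179 ± 524 in Etv3+/+ libraries (SD, n = 3 and 2). Itgam, which encodes CD11b, was at 1732, 1637 and 1855 in Etv3-/- libraries, against 726 and 709 in Etv3+/+ libraries, a log2 fold change of 1.28 with no overlap (limma adjusted p = 0.0635). Csf1r, which encodes the CD115 used to leave cells out, averaged 2928 ± 547 normalized counts in Etv3-/- and 1183 ± 233 in Etv3+/+ libraries (limma adjusted p = 0.0683). In sorted bulk samples a larger share of expressing cells and more RNA per cell cannot be told apart.

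The inhibitor chain H2-Ob showed the widest gap between genotypes of the 5 genes. H2-Ob (chromosome 17, 34238903 to 34254414, GRCm38, plus strand, 6 exons in its main transcript) was at 16014, 13478 and 12877 normalized counts in Etv3-/- libraries, against 2034 and 1130 in Etv3+/+ libraries. Every Etv3-/- library lay above both Etv3+/+ libraries, and the narrowest gap, between the lowest Etv3-/- and the highest Etv3+/+ library, was 6.33-fold. The fitted log2 fold change on the log2(normalized count + 1) scale was 3.21 (SE 0.28, 95% interval 2.56 to 3.86), or 9.27-fold. Over all 13813 tested genes, 285 had a log2 fold change at least as high. The fewest reads behind any of these values were the 1321 of H2-Ob in Etv3+/+ replicate 2.

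H2-Oa, which pairs with H2-Ob, was higher in Etv3-/- cells by a smaller factor. H2-Oa (chromosome 17, 34092340 to 34095234, plus strand, 5 exons) had 15192, 14915 and 18630 normalized counts in Etv3-/- libraries, against 4868 and 4204 in Etv3+/+ libraries. The genotypes did not overlap, and the libraries of a genotype lay close together. Its log2 fold change was 1.84 (SE 0.20, 95% interval 1.36 to 2.31), or 3.57-fold. The gene lies inside BC051537, annotated on the other strand, and shares 321 exonic bases with it, 22.8% of the exonic bases of H2-Oa. BC051537 was at 83.9, 104 and 211 normalized counts in Etv3-/- and 69.9 and 32.5 in Etv3+/+ libraries, far below H2-Oa in each.

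**Figure D1:**
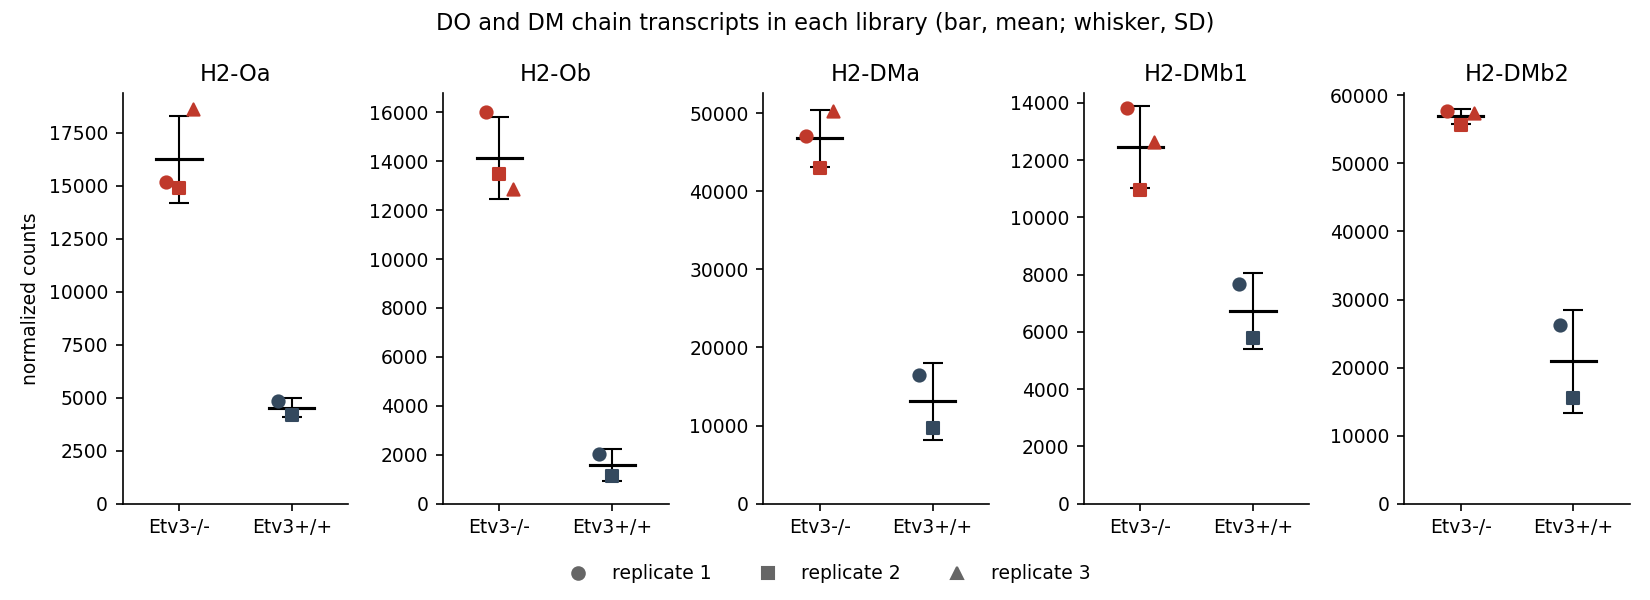
Normalized counts (vertical axis, linear, from 0, on a scale of its own in each panel) of the DO chains H2-Oa and H2-Ob and the DM chains H2-DMa, H2-DMb1 and H2-DMb2 in 3 Etv3-/- and 2 Etv3+/+ libraries. Points are libraries, horizontal bars are means and whiskers are SD. In each panel the Etv3-/- libraries lie above both Etv3+/+ libraries, with the widest gap for H2-Ob.

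The alpha chain of the catalyst was higher by about the same factor as H2-Oa. H2-DMa (chromosome 17, 34119541 to 34139101, plus strand, 6 exons) had 47040, 43036 and 50264 normalized counts in Etv3-/- libraries, against 16530 and 9631 in Etv3+/+ libraries. The Etv3-/- values kept within a narrow range, while Etv3+/+ replicate 2 was well below replicate 1. Its log2 fold change was 1.89 (SE 0.27, 95% interval 1.27 to 2.50), or 3.70-fold, and it was 2.28 without Etv3+/+ replicate 1 and 1.5 without replicate 2. H2-DMa shares 360 exonic bases, 10.4% of its own, with genes that overlap it, among them Brd2 on the other strand. Brd2, a chromatin reader of the bromodomain family, averaged 16433 ± 1891 normalized counts in Etv3-/- and 14611 ± 1936 in Etv3+/+ libraries (SD, n = 3 and 2), with groups that overlapped.

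The mouse has a pair of DM beta chain genes, and the more abundant of them differed more between genotypes. H2-DMb2 (chromosome 17, 34143307 to 34151555, plus strand, 6 exons) had 57761, 55614 and 57341 normalized counts in Etv3-/- libraries, against 26251 and 15580 in Etv3+/+ libraries. Its log2 fold change was 1.49 (SE 0.26, 95% interval 0.89 to 2.10), with 1.87 without Etv3+/+ replicate 1 and 1.12 without replicate 2. H2-DMb1 (chromosome 17, 34153072 to 34160230, plus strand, 6 exons) had 13803, 10957 and 12642 normalized counts in Etv3-/- libraries, against 7664 and 5791 in Etv3+/+ libraries. Its log2 fold change of 0.90 (SE 0.22, 95% interval 0.39 to 1.4) was the smallest of the 5 genes. For both beta genes the genotypes did not overlap.

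In the fit across all tested genes, 4 of the 5 genes passed as higher in Etv3-/- (limma, adjusted p under 0.05), all but H2-DMb1, against 0.876% of the 13813 tested genes. None passed as lower, against 0.319% of tested genes. All 5 had groups that did not overlap, with Etv3-/- the higher, as had 16.7% of tested genes, while 19.3% did not overlap in the other direction. The first count was 4 and 2 without Etv3+/+ replicate 1 and 2, and 0, 0 and 1 without Etv3-/- replicate 1, 2 and 3. It was 3 with edgeR, 5 with DESeq2 and 0 with limma's trend=FALSE. Because the genes were picked from this contrast, nothing is read from these counts.

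H2-DMb1 and H2-DMb2 are near-identical copies, which bears on how reads could be divided between them. Of 783 aligned coding bases, 751 were identical (95.9%), and the longest identical run was 221 bases. Other pairs of the 5 genes were 54.7% to 59.7% identical. Of the 50-base windows of the main H2-DMb1 transcript, 27.2% also occur in a H2-DMb2 transcript, and of the 100-base windows 13.7% do. Of the 32 differing coding bases, 19 fall in a stretch of 90 bases, coding positions 206 to 295 counted from the start codon. That stretch is shown because reads across it can be told apart; bases in capitals differ between the genes (GENCODE M21 transcripts, GRCm38).
H2-DMb1: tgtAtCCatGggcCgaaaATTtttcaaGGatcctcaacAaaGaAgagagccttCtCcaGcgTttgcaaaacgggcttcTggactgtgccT
H2-DMb2: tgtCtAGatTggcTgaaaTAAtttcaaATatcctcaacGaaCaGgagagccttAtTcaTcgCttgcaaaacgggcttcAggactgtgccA

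The treatment of reads that fit both genes is not stated, so the split between the copies is uncertain and their sum is the firmer value. H2-DMb2 made up 80.7%, 83.5% and 81.9% of that sum in Etv3-/- libraries, against 77.4% and 72.9% in Etv3+/+ libraries. The ratio of H2-DMb1 to H2-DMb2 was thus lower in every Etv3-/- library, 0.239, 0.197 and 0.221, against 0.292 and 0.372 in Etv3+/+ libraries. The log2 difference was -0.59.

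Ratios within a library do not depend on how libraries are scaled, and they separated the beta from the alpha chains. The beta ratio, H2-Ob over the sum of H2-DMb1 and H2-DMb2, was 0.224, 0.203 and 0.184 in Etv3-/- libraries, against 0.0600 and 0.0529 in Etv3+/+ libraries. The groups did not overlap, and the log2 difference was 1.85, or 3.6-fold, with SDs on the log2 scale of 0.14 in Etv3-/- and 0.13 in Etv3+/+ (n = 3 and 2). The alpha ratio, H2-Oa over H2-DMa, was 0.323, 0.347 and 0.371 in Etv3-/- libraries, against 0.295 and 0.437 in Etv3+/+ libraries. Here all 3 Etv3-/- values lay between those of Etv3+/+. The log2 difference of -0.05 was smaller than the SDs of 0.10 in Etv3-/- and 0.40 in Etv3+/+, and it was -0.33 without Etv3+/+ replicate 1 and 0.23 without replicate 2.

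The total of both DO chains over the total of the DM chains lay between these. It was 0.263, 0.259 and 0.262 in Etv3-/- libraries, nearly the same value in each, against 0.137 and 0.172 in Etv3+/+ libraries. The log2 difference was 0.77, or 1.70-fold, and 0.60 or 0.93 without Etv3+/+ replicate 1 or 2. Per kilobase of main transcript, which weights each chain by molecules rather than by length, the same ratio was 0.253, 0.258 and 0.276 in Etv3-/- libraries, against 0.155 and 0.205 in Etv3+/+ libraries, a log2 difference of 0.56.

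**Figure D2:**
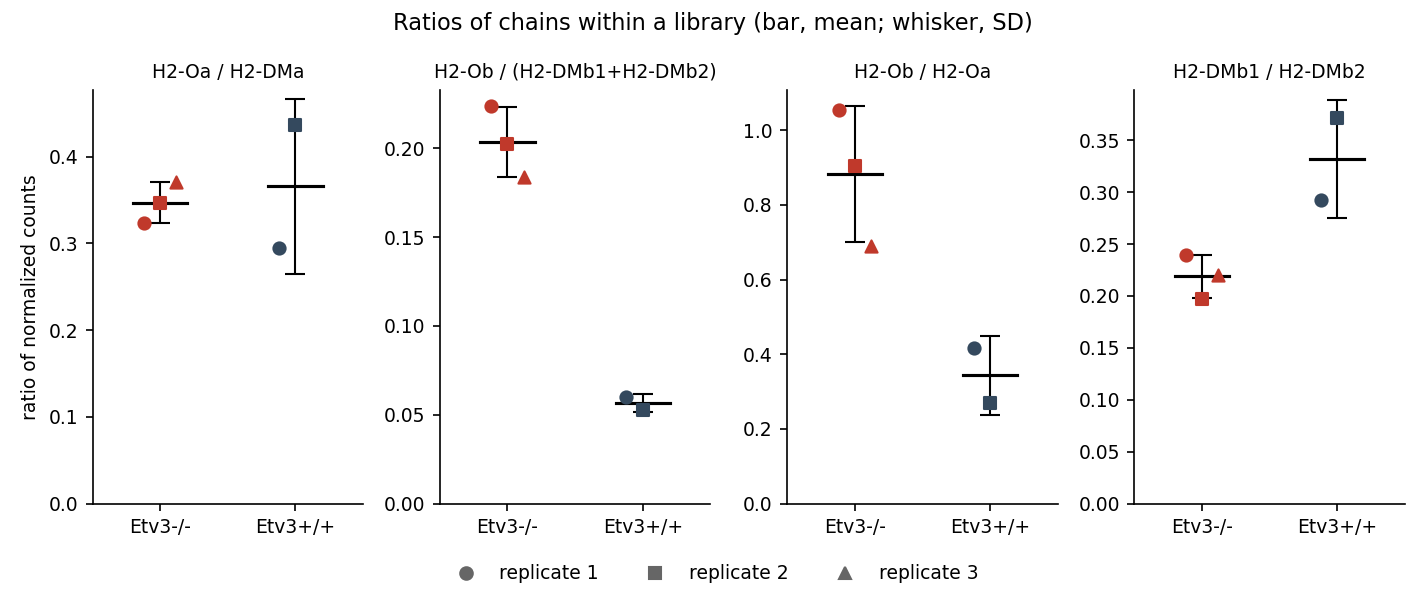
Ratios of normalized counts within each library (vertical axis, linear, from 0, own scale in each panel) for H2-Oa over H2-DMa, H2-Ob over the sum of H2-DMb1 and H2-DMb2, H2-Ob over H2-Oa, and H2-DMb1 over H2-DMb2, in 3 Etv3-/- and 2 Etv3+/+ libraries. Points are libraries, horizontal bars are means and whiskers are SD. The Etv3-/- libraries lie inside the Etv3+/+ range for the alpha ratio, above it for H2-Ob over the DM beta chains and over H2-Oa, and below it for H2-DMb1 over H2-DMb2.

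Within DO, the beta to alpha ratio differed as well. H2-Ob over H2-Oa was 1.05, 0.904 and 0.691 in Etv3-/- libraries, against 0.418 and 0.269 in Etv3+/+ libraries, a log2 difference of 1.38 or 2.60-fold. Within DM, H2-DMa over the sum of its beta chains was 0.657, 0.647 and 0.718 in Etv3-/- libraries, against 0.487 and 0.451 in Etv3+/+ libraries, a log2 difference of 0.52. Set against H2-Ab1, the beta chain of the classical class II molecule I-A, H2-Ob stood apart. H2-Ob over H2-Ab1 was 0.0264, 0.0197 and 0.0148 in Etv3-/- libraries, against 0.00676 and 0.00585 in Etv3+/+ libraries, a log2 difference of 1.65. The log2 differences of the other chains over H2-Ab1 were nearer to 0, at 0.28 for H2-Oa, 0.33 for H2-DMa and -0.20 for the DM beta sum. For H2-Oa and the DM beta sum these ratios overlapped between genotypes.

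Per kilobase of main transcript, H2-DMb2 had the highest level in both genotypes and H2-Ob the lowest. In Etv3-/- cells the order was H2-DMb2 at 39960 ± 799, H2-DMa at 28210 ± 2184, H2-Oa at 14930 ± 1902, H2-DMb1 at 8880 ± 1019 and H2-Ob at 5290 ± 624 normalized counts per kilobase (SD, n = 3), and no neighbours in this order overlapped. In Etv3+/+ cells it was H2-DMb2 at 14690 ± 5299, H2-DMa at 7889 ± 2942, H2-DMb1 at 4792 ± 943, H2-Oa at 4169 ± 431 and H2-Ob at 593 ± 239 (SD, n = 2). There H2-DMb1 and H2-Oa overlapped. H2-Ob was thus the scarcest chain per kilobase in each genotype. Counts not divided by length put it last in Etv3+/+ cells only. In Etv3-/- cells its mean of 14123 normalized counts was above the 12467 of H2-DMb1, whose share of reads is uncertain. Per kilobase, H2-Ob over H2-Oa was 0.282 to 0.430 in Etv3-/- libraries, against 0.110 and 0.170 in Etv3+/+ libraries. The length used changes part of this order but not the last place of H2-Ob. H2-DMa measures 1658 bases in its main transcript and 3448 over all annotated exons. With all annotated exons, H2-DMa and H2-Oa overlapped in Etv3-/- cells, and H2-DMb1, H2-DMa and H2-Oa could not be ordered in Etv3+/+ cells.

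All 5 genes lie in the class II region of chromosome 17, within 162075 bases, interleaved with genes of class I presentation. Between H2-Oa and H2-Ob the annotation has Brd2, Psmb9, Tap1, Psmb8 and Tap2. Psmb8 and Psmb9 encode immunoproteasome subunits, and Tap1 and Tap2 the peptide transporter that supplies class I molecules. None of these 5 genes passed the test (limma adjusted p = 0.155 to 0.707). On the list of 9 genes between and beside the DM and DO genes 0 passed with limma, 5 had an unadjusted p under 0.05, and edgeR called 1 and DESeq2 4. Over all 13813 tested genes these counts were 165, 2480, 158 and 1188. The median log2 fold change of the 9 genes was 0.51. Tap1 averaged 13224 ± 324 normalized counts in Etv3-/- and 8691 ± 280 in Etv3+/+ libraries, a log2 fold change of 0.61, the largest of the 5. Those of Tap2, Psmb9, Psmb8 and Brd2 were 0.51, 0.48, 0.36 and 0.17. H2-DMb1, with the smallest value among the DM and DO chains, stood at 0.90. On the far side of H2-Ob, 3 classical chain genes had larger values, 1.56 for H2-Ab1, 1.24 for H2-Aa and 1.58 for H2-Eb1. H2-Eb2, further along, was below H2-DMb1, at 0.76 (limma adjusted p = 0.287). Beyond it lie Btnl2 and Btnl1, outside that list of 9. Btnl1 was at 3.91, above the 3.21 of H2-Ob, without overlap (limma adjusted p = 0.0550). It had 867, 805 and 665 normalized counts in Etv3-/- libraries, against 20.5 and 122 in Etv3+/+ libraries. Btnl2 was near 0, with at most 26 reads in a library and groups that overlapped.

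**Figure D3:**
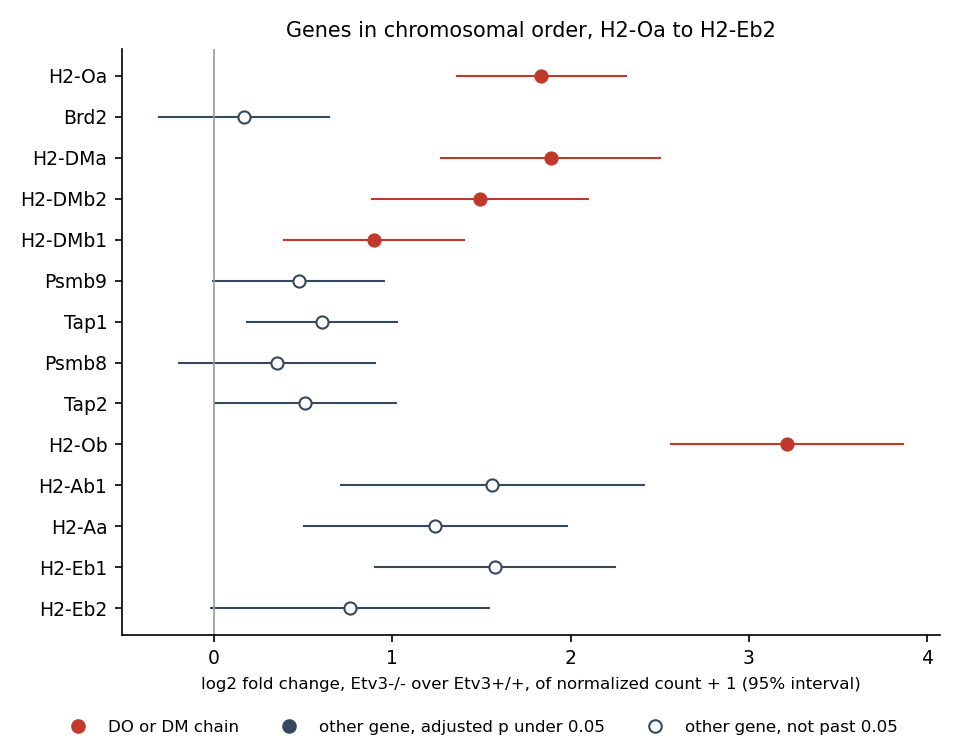
Log2 fold change of normalized count + 1, Etv3-/- over Etv3+/+ (horizontal axis), for protein-coding genes in chromosomal order from H2-Oa (top) to H2-Eb2 (bottom). Points are limma estimates and lines their 95% intervals from 3 Etv3-/- and 2 Etv3+/+ libraries; red marks DO and DM chains, and open points other genes that did not pass. Brd2, Psmb9, Tap1, Psmb8 and Tap2, between the DM and DO genes, lie at 0.17 to 0.61, below each of the DO and DM chains.

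Promoters of class II genes carry an X box, bound by the RFX complex, and a Y box, bound by NF-Y, on which the coactivator CIITA assembles. RefSeq promoters (GRCm38.p6, 250 bases before to 50 after the start) were found for all 5 genes, with 2 windows for H2-DMa. Of these, 34122582 to 34122881 largely overlaps a Brd2 promoter window on the other strand, 34122558 to 34122857. Both H2-DMa windows lie inside the gene as annotated in GENCODE, which begins at 34119541, so a missing match there says little. A strict X box consensus, searched on both strands, occurred in the windows of H2-Ob and H2-DMb1, and in 0.749% of all 32851 promoters. After their letters had been read, a looser pair was counted, CCNNNNAAC followed by ATTGG (the Y box CCAAT read on the other strand) with starts 20 to 45 bases apart. It was present for H2-Ob, H2-Oa, H2-DMb1 and H2-DMb2, for neither H2-DMa window, and in 1.17% of all promoters. The windows of the classical chain genes H2-Aa, H2-Eb1 and H2-Eb2 held neither the strict X box nor that pair. A missing match therefore does not show that a promoter lacks an X box. The stretches are shown to compare that pair, with both parts in capitals, all on the plus strand of chromosome 17. That of H2-DMb1 is cut to 30 bases, short of its ATTGG. Those of H2-DMb2 and H2-DMb1 lie before the RefSeq start. They are inside the genes as annotated in GENCODE, which begin at 34143307 and 34153072.
H2-Ob, chr17:34238804-34238867: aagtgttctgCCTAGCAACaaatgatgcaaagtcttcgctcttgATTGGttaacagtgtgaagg
H2-Oa, chr17:34092289-34092340: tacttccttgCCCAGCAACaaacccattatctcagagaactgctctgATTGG
H2-DMb2, chr17:34145112-34145178: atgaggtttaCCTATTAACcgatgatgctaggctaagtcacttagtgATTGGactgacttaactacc
H2-DMb1, chr17:34153091-34153120: taCCTAGTAACtgatgatgctaggctgatt

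The starts of both parts were 34 bases apart in H2-Ob and 37 bases apart in H2-Oa, H2-DMb1 and H2-DMb2. The X box part began 80 to 127 bases before the RefSeq start. The ETS motif CGGAAGT was in none of the 6 windows, on either strand, and in 6.42% of all promoters, while the core GGAA was in all 6 windows and in 96.0% of promoters. The Y box letters CCAAT were in 37.4% of promoters. These are letter matches in a fixed window, not binding data.

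Among the class II transcription factors listed, 1 of 9 rose and 1 fell (limma, adjusted p under 0.05), against 0.876% and 0.319% of all tested genes. Of the 9, 3 had an unadjusted p under 0.05, edgeR called 2, DESeq2 3 and limma with trend=FALSE 0. Over all 13813 tested genes these counts were 2480, 158, 1188 and 93. The median log2 fold change of the 9 was -0.10, against -0.06 over all tested genes. Creb1 was lower without overlap, at -1.19 (limma adjusted p = 0.164). Ciita, the coactivator that class II genes need, rose 2.51-fold. It had 13344, 13343 and 15160 normalized counts in Etv3-/- libraries, against 6591 and 4682 in Etv3+/+ libraries (limma adjusted p = 0.0380). Prdm1, the gene of the transcriptional repressor Blimp-1, fell 3.50-fold to 858, 640 and 853 in Etv3-/- libraries, against 2765 and 2686 in Etv3+/+ libraries (limma adjusted p = 0.0280). Genotypes did not overlap for either gene. Neither kept its call when any 1 of the 5 libraries was left out (limma adjusted p = 0.0606 to 0.157 for Ciita and 0.0966 to 0.117 for Prdm1), with log2 fold changes of 1.08 to 1.57 and -1.88 to -1.67. Rfx5, a subunit of the RFX complex that binds the X box, averaged 958 ± 95.0 in Etv3-/- and 885 ± 51.3 in Etv3+/+ libraries (SD, n = 3 and 2), and the genotypes overlapped.

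The classical chains and the invariant chain lay in the same direction without passing. Of the 5 tested 0 passed with limma, 3 had an unadjusted p under 0.05, edgeR called 1 and DESeq2 3, and the median log2 fold change was 1.24. H2-Ab1 averaged 719930 ± 135780 normalized counts in Etv3-/- and 247120 ± 76060 in Etv3+/+ libraries (limma adjusted p = 0.0949). Cd74, the invariant chain whose fragment DM removes, averaged 853960 ± 182590 in Etv3-/- and 527130 ± 156490 in Etv3+/+ libraries (limma adjusted p = 0.394). Of the 13 endosomal processing and turnover genes 0 passed with limma, 2 had an unadjusted p under 0.05, edgeR called 0 and DESeq2 2, and the median log2 fold change was 0.27. The 2 went opposite ways. Lgmn, an asparagine endopeptidase of the endosomes, averaged 8013 ± 1618 normalized counts in Etv3-/- and 22668 ± 7511 in Etv3+/+ libraries, with no overlap and a log2 fold change of -1.48 (limma adjusted p = 0.0550). Ifi30, a thiol reductase that unfolds antigens, averaged 28522 ± 3117 in Etv3-/- and 17191 ± 2226 in Etv3+/+ libraries (limma adjusted p = 0.139). Lgmn was called lower by DESeq2, with a filter of 50, with a pseudocount of 5, after the GC and length correction and with the replicate block. Over all 5 libraries Cst3, an inhibitor of cathepsins, and Cd83, which protects class II from ubiquitination, had the highest mean levels of the list. Cst3 averaged 677970 ± 181900 in Etv3-/- and 433400 ± 68942 in Etv3+/+ libraries, and Cd83 195100 ± 15198 in Etv3-/- and 143800 ± 35365 in Etv3+/+ libraries (SD, n = 3 and 2). Across all 13813 tested genes, 165 passed with limma and 2480 had an unadjusted p under 0.05. DESeq2 called 644 higher and 544 lower, and edgeR 114 and 44.

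**Figure D4:**
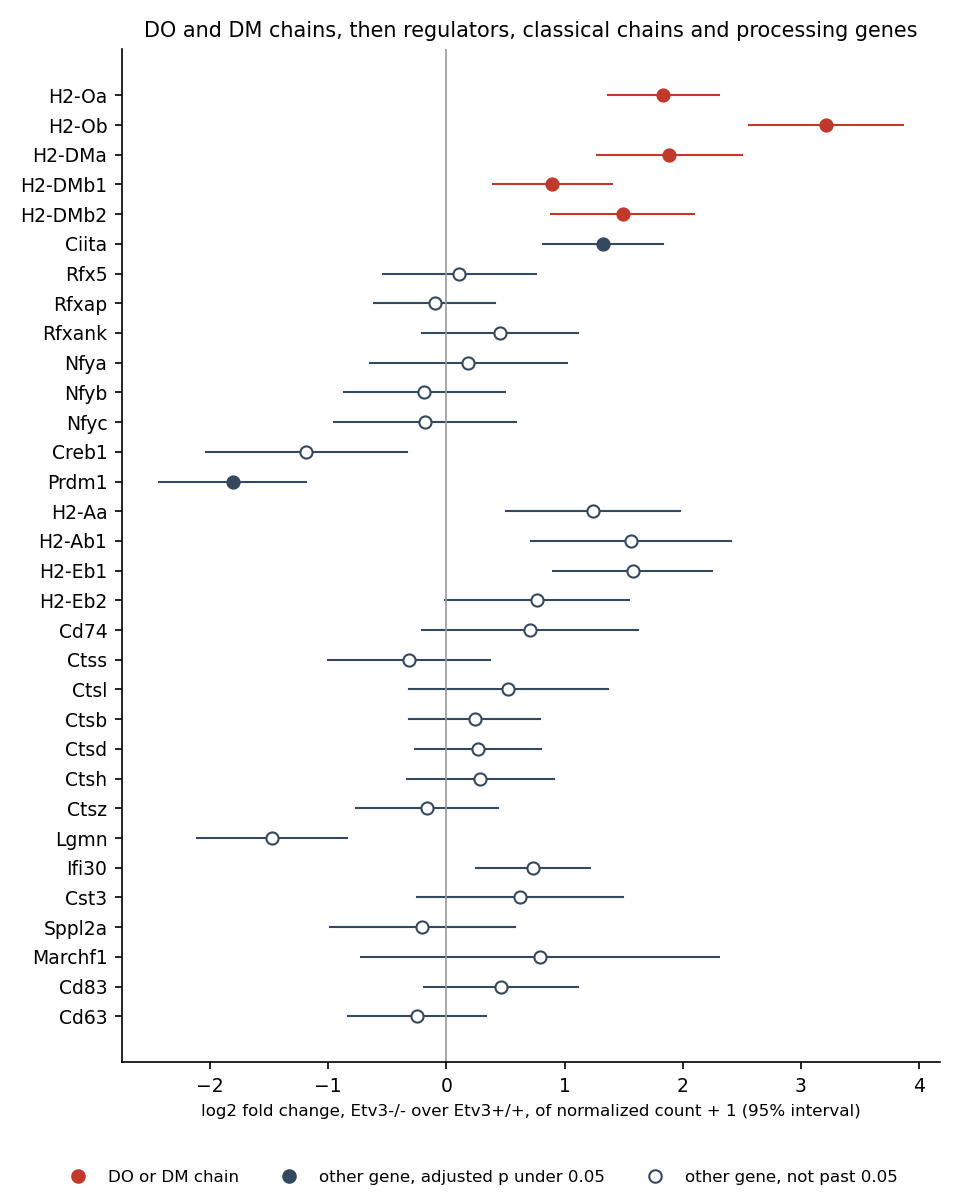
Log2 fold change of normalized count + 1, Etv3-/- over Etv3+/+ (horizontal axis), for DO and DM chains (red), class II transcription factors, classical chains with the invariant chain, and endosomal processing genes, from top to bottom. Points are limma estimates and lines their 95% intervals from 3 Etv3-/- and 2 Etv3+/+ libraries; filled dark points are other genes past an adjusted p of 0.05, open points those that did not pass. Ciita (1.33) and Prdm1 (-1.81) are the filled dark points, and the DO and DM chains lie between 0.90 and 3.21.

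Since DO is typical of B cells, transcripts of B cells were read beside it. Of 14 listed B cell genes 13 were tested. Of these 0 passed with limma, 7 had an unadjusted p under 0.05, and edgeR called 0 and DESeq2 4. Over all 13813 tested genes these counts were 165, 2480, 158 and 1188. The B cell list had a median log2 fold change of 1.78, with 11 of the 13 positive. Ms4a1 and Ebf1 went the other way, at -1.01 and -1.37, with groups that overlapped. The summed level of all 14 was 8777, 5117 and 5615 normalized counts in Etv3-/- libraries, against 2912 and 2390 in Etv3+/+ libraries, so it moved with genotype. That sum of 14 genes was below H2-Ob alone in each Etv3-/- library and above it in both Etv3+/+ libraries. The most abundant were Ighm, the IgM heavy chain, at 1771 ± 430 normalized counts in Etv3-/- and 1025 ± 309 in Etv3+/+ libraries, and Cd79b, a chain of the B cell receptor, at 1413 ± 382 in Etv3-/- and 418 ± 221 in Etv3+/+ libraries. Pax5, a transcription factor of B cell identity, averaged 76.5 ± 81.0 normalized counts in Etv3-/- and 5.99 ± 8.47 in Etv3+/+ libraries (SD, n = 3 and 2), and Cr2, a complement receptor of B cells, had 0 reads in all 5. The part of such RNA in the level of H2-Ob was not tested.

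Markers of macrophages and other dendritic cell types also moved in part. Over all 13813 tested genes, 0.876% rose with limma and 2480 had an unadjusted p under 0.05. There edgeR called 114 higher, DESeq2 644 and limma with trend=FALSE 44. On the macrophage list 3 of 12 genes rose, the complement genes C1qa, C1qb and C1qc (9.83-fold, 4.30-fold and 6.05-fold). In all, 11 of the 12 had a positive log2 fold change and 9 an unadjusted p under 0.05, and edgeR called 3 higher, DESeq2 8 and limma with trend=FALSE 0. The list had a median log2 fold change of 1.39 and a summed level of 54631 to 73933 normalized counts in Etv3-/- and 34634 to 34942 in Etv3+/+ libraries. Leaving out Etv3+/+ replicate 1 or 2 made the count 1 or 2, and leaving out any Etv3-/- replicate made it 0. Among cDC2 markers (the second type of conventional dendritic cell) 2 of 7 tested genes rose, the lectin genes Mgl2 and Clec10a, by 16.2-fold and 13.6-fold, while 4 had an unadjusted p under 0.05 and edgeR called 2, DESeq2 4 and trend=FALSE 1. Their list summed to 94774 to 117050 in Etv3-/- and 22574 to 24537 in Etv3+/+ libraries. Mgl2 alone made up most of the Etv3-/- sum, at 67676 to 82946, against 3436 to 6138 in Etv3+/+ libraries. In all, 5 of the 7 had a positive log2 fold change. Irf4 and Clec4a2 went the other way, at -0.47 and -0.53, with groups that overlapped. The count of cDC2 genes that rose was 0 without Etv3-/- replicate 1 and 1 without replicate 2 or 3. On the cDC1 list, for the cross-presenting conventional type, Wdfy4 and Naaa rose among 7 tested genes, by 15.3-fold and 3.33-fold. That count was 1 without Etv3+/+ replicate 1 or Etv3-/- replicate 3 and 0 without Etv3-/- replicate 1 or 2. The other cDC1 genes ranged widely in level. Batf3, a transcription factor of these cells, averaged 6145 ± 1267 normalized counts in Etv3-/- and 6956 ± 1175 in Etv3+/+ libraries. Irf8, another, averaged 86533 ± 3243 in Etv3-/- and 109790 ± 20957 in Etv3+/+ libraries (SD, n = 3 and 2), and neither passed. The receptor genes Xcr1 and Clec9a were near 0. Xcr1 averaged 10.7 ± 9.55 in Etv3-/- and 10.3 ± 14.5 in Etv3+/+ libraries, and Clec9a averaged 0.585 ± 1.01 in Etv3-/- libraries and had 0 reads in both Etv3+/+ libraries. Of the plasmacytoid list 1 of 5 tested genes rose, Ccr9, whose call was lost whichever library was left out. Ccr9 was low, at 106, 199 and 99.1 normalized counts in Etv3-/- and 0 reads in both Etv3+/+ libraries. In all, 3 of the 5 had a positive log2 fold change. Cox6a2 was lower in Etv3-/- without overlap, at -1.14 (limma adjusted p = 0.385), and Ly6d was at -0.21 with overlap. Siglech had 0 reads in all 5 libraries. Of 7 general dendritic cell genes 0 passed with limma, 1 had an unadjusted p under 0.05, and edgeR called 0 and DESeq2 1. Ccr7, a chemokine receptor of maturing dendritic cells, averaged 252940 ± 38448 in Etv3-/- and 264520 ± 25742 in Etv3+/+ libraries. The part of these cell types in the DO and DM values was not tested.

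The profile of each gene over the 5 libraries was set against all other tested genes with a gene name (predicted Gm genes and Rik clones left out) by the root mean square difference of centred log2 values. Nearest to H2-Ob were Tbxas1, thromboxane synthase (0.15), Unc119, a carrier of lipidated proteins (0.25), and Tnfsf11, the cytokine RANKL (0.27). Tbxas1 had 5922, 5437 and 5641 normalized counts in Etv3-/- and 732 and 367 in Etv3+/+ libraries. Nearest to H2-Oa were Lst1 (0.09), Ltc4s, leukotriene C4 synthase (0.10), and Gngt2 (0.11). Nearest to H2-DMa were Slc35d3 (0.06), Tnfsf9, the ligand of 4-1BB (0.09), and the kinase gene Pim3 (0.10). Slc7a7 (0.04), Il10ra, a chain of the IL-10 receptor (0.04), and Rbmx2 (0.06) were nearest to H2-DMb1, and Upp1 (0.07), the integrin gene Itgb2 (0.08) and Cfap298 (0.09) to H2-DMb2. Within the family H2-Oa, H2-DMa and H2-DMb2 were closest. Differences were 0.19 between H2-Oa and H2-DMa, 0.20 between H2-DMa and H2-DMb2 and 0.26 between H2-Oa and H2-DMb2. Other genes were nearer still. Counted from H2-Oa, H2-DMa ranked 24 and H2-DMb2 64. From H2-DMa, H2-Oa ranked 19 and H2-DMb2 22, and from H2-DMb2, H2-DMa ranked 46 and H2-Oa 97. The measure includes the genotype difference by which the genes were chosen, so no family trait is read from it. H2-Ob was 0.66 to 1.15 away from each of the others.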

How the data were processed

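The authors deposited a signal per gene and library, read counts scaled by library. Tools named in the submitters' processing notes are STAR 2.7.3a, Trimmomatic 0.36, DESeq2 1.26.0, Subread 1.6.3 and featureCounts, and the build is mm10. The sources used here give neither their roles nor the strand setting nor the treatment of reads that map to several genes. Whole reads were recovered as multiples of the step in each library (100% of values within 0.1 of a whole number). Genes that reached 10 normalized counts in 2 or more libraries entered the test with limma 3.58.1 (trend, two-sided, R 4.3.3) after adding 1 and taking log2, with genotype the only term, and Benjamini-Hochberg adjustment at 0.05. With 3 against 2 libraries there are 10 splits, too few for an exact permutation p under 0.05, so no such test was run. The procedure was tested on simulated counts drawn without the trend with GC content that these libraries show, so nothing is read from that test. The genes described, the lists and the naming rule (the 5 genes, Etv3, their regulators and neighbours, up to 4 called members of each list or else the 2 most abundant, and the 3 nearest profiles) were chosen with earlier results of these data known. Sorting markers, further cell type markers, Lgmn and Ifi30 were named outside that rule, after their values were seen. Member ratios, identity (Biopython 1.88) and motif counts are descriptions. Lengths and positions came from GENCODE M21 (GRCm38, the assembly of mm10), promoters from RefSeq. Without molecular identifiers, PCR copies count as reads. Alternatives were pseudocounts, filters, scalings, variance models, edgeR 4.0.16 and DESeq2 1.42.0 on those reads, a replicate block, omitted libraries and a local regression on GC content and gene length (span 0.3, values for 99.7% of tested genes). Figures used matplotlib 3.10.9.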

Additional observations from a re-analysis of the deposited data

How the results depend on the processing

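Each of the 5 genes stayed higher in Etv3-/- under all 20 alternatives, an outcome that groups without overlap fix for the omitted libraries. Omitting single libraries gave log2 fold changes of 1.73 to 1.94 for H2-Oa, 2.79 to 3.64 for H2-Ob, 1.5 to 2.28 for H2-DMa, 0.70 to 1.10 for H2-DMb1 and 1.12 to 1.87 for H2-DMb2. Etv3+/+ replicate 2 and Etv3-/- replicate 3 were the libraries with the strongest trend with GC content (Spearman -0.42 and 0.41 across genes). Without both together, the log2 fold changes were 1.63 (H2-Oa), 2.85 (H2-Ob), 1.44 (H2-DMa), 0.68 (H2-DMb1) and 1.11 (H2-DMb2). The GC and length correction gave 1.62 for H2-Oa (1.61 with the replicate block) and 0.66 for H2-DMb1. H2-Ob, with 46.0% GC against 53.7% to 56.6% in the others, was at 3.35 with it.

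Omitting single libraries moved the log2 differences of the ratios to -0.33 to 0.23 for H2-Oa over H2-DMa, 1.76 to 1.94 for H2-Ob over the DM beta sum, 0.60 to 0.93 for all DO over all DM, 1.06 to 1.69 for H2-Ob over H2-Oa and 0.06 to 0.49 for H2-Oa over H2-Ab1. Without the GC pair of libraries they were 0.93 for all DO over all DM, 0.42 for H2-DMa over its beta sum and 0.53 for H2-Oa over H2-Ab1. The GC and length correction gave 2.22 for H2-Ob over the DM beta sum. With H2-DMb1 alone in place of the beta sum the values were 2.32 for H2-Ob, 0.99 for H2-DMa and -0.66 for the DM beta chain over H2-Ab1.

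Over all genes, 121 were higher and 44 lower. On recovered reads edgeR gave 114 and 44 and DESeq2 644 and 544. Limma gave 225 and 104 after the GC and length correction (73 lower with the replicate block), 44 higher with trend=FALSE, 70 lower with a pseudocount of 5, 6 and 1 with the GC pair omitted, and 0 to 73 and 0 to 7 with single omissions. The 0 in both directions came without Etv3-/- replicate 1, where limma gave 1885 genes an unadjusted p under 0.05. Of the listed genes 9 were higher and 1 lower. DESeq2 gave 25 and 3, trend=FALSE 2 and 0, the GC pair omitted 1 and 0, and single omissions 0 to 6 and 0. A filter of 50, a pseudocount of 5, the GC and length correction with and without the replicate block, and the block alone each gave 2 lower. The replicate block gave 118 genes lower in all. Replicate 3 exists in Etv3-/- alone and then drops out of the difference. Deviations from the group means correlated at -0.03 and 0.04 between libraries of the same number, which cannot show a pairing, since the deviations of 2 Etv3+/+ libraries mirror each other. The causes of these changes were not tested. The GC correction with the replicate block was chosen after seeing the data.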
